A study of Mus musculus with 32 samples.

Results

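The locus of the metallothionein genes Mt1 and Mt2 was taken as a 120-kb window of the mouse genome, chr8:96640000-96760000 in the build mm9. All intervals with their centre inside that window were collected from 5 deposited lists. There were 26 such intervals among 180039. They were 4 peaks of the glucocorticoid receptor (GR), 9 DNase I hypersensitive sites (DHS, stretches of accessible chromatin) after dexamethasone, 7 DHS after vehicle, 6 peaks of the transcription factor C/EBPβ after dexamethasone and 0 C/EBPβ peaks after vehicle. The window was chosen by the position of its intervals, by the dexamethasone DHS absent from the vehicle list and by their distance to GR peaks, so its counts are a description and were given no test.

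The tissue was whole liver of male C57BL/6 mice aged 8 weeks. All animals, controls included, had both adrenal glands removed, which takes away the main source of their own glucocorticoid. They were injected with dexamethasone, a synthetic GR ligand, at 1 mg/kg in a cyclodextrin complex, or with the cyclodextrin carrier alone at 1 mg/kg as vehicle, in 300 ul of saline, and the labels give 1 h as the time. The labels list 2 samples for each of the 6 groups behind the lists (DNase-seq, GR and C/EBPβ ChIP-seq, each with dexamethasone and vehicle). Each list is nevertheless a single set of positions, and the GR list names no treatment. No list has a height or count, so read depth is unknown, no value has a replicate error, and absence from a list means only that no interval was listed.

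Metallothioneins are small, cysteine-rich proteins that bind zinc and copper and also take up cadmium. In liver Mt1 and Mt2 are transcribed together, and the zinc-sensing factor Mtf1 drives them through metal response elements in their promoters. Glucocorticoid hormones are a further known inducer of both genes, acting through GR binding elements upstream of Mt2. In the RefSeq gene table (GRCm38.p6) the order of protein-coding genes is Bbs2, Mt4, Mt3, Mt2, Mt1 and Nup93. Mt3 and Mt4 are the other members of the family, known from brain and from stratified epithelium. Positions of genes in mm9 were not used here, so no interval was assigned to a promoter, exon or intron.

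The sequences of the Mt1 and Mt2 promoters are shown because the locus is named for these genes and metal response elements are their best-known control sites. Each line gives the 250 bases before the annotated start, 5′ to 3′ on the plus strand, from RefSeq in GRCm38.p6, a different build from that of the intervals (chr8:94178839-94179088 for Mt1 and chr8:94172368-94172617 for Mt2). Capitals mark the core of a metal response element, TGCGCNC or TGCACNC on either strand.
Mt1: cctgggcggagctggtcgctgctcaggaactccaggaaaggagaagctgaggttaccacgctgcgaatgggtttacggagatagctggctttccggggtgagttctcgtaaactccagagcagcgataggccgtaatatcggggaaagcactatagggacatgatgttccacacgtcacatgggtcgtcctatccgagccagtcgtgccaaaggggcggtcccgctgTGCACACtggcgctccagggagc
Mt2: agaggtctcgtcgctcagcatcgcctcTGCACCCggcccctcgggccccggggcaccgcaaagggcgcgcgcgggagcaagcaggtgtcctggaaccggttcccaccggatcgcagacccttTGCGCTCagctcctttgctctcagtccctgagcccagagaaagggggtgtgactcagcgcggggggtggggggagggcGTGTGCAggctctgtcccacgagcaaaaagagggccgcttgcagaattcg

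The Mt2 sequence held 3 cores, at -223 to -217 and -128 to -122 on the plus strand and at -50 to -44 on the minus strand. As many as 3 cores were found in 1.26% of the 32851 promoters of the table, and 21.4% held any. The Mt1 sequence held 1, at -23 to -17, and 0 when the core had to be followed by a G. In the whole windows of the table, which add the 50 bases after the start, Mt1 had 3 cores and Mt2 had 4, against 1 each for Mt3 and Mt4. Slc30a1, which encodes a zinc exporter and is another Mtf1 target, had 2 cores and Mtf1 itself 0. Of these whole windows, 25.7% held a core, 1.97% held 3 or more and 0.517% held 4 or more.

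Neither metallothionein window held the GR hexamer TGTTCT on either strand, which 19.0% of the whole windows held. With 1 mismatch allowed, the 250 bases of Mt1 held 3 matches to it and those of Mt2 held 2. No share over all promoters was computed for this looser search, so these counts cannot be read as GR sites. The full glucocorticoid response element (AGAACA and TGTTCT with 3 bases between, which thus contains the hexamer) was also not among their letters, and was found in 0.00913% of whole windows. Mt2 had 1 match to the C/EBP core TTGCNNAA, at -12 to -5, and 1 to the AP-1 site TGANTCA, at -79 to -73. The whole windows held these motifs in 10.8% and 7.81% of cases, and Mt1 had 0 matches to both. The E-box CACGTG was in neither sequence and in 7.15% of whole windows. The matches in the 250 bases of Mt2 did not overlap each other. The letters TATAAA, a search added after seeing the data, were in the Mt4 window but in neither the Mt1 nor the Mt2 window, and in 13.6% of all windows. A table's start site can lie away from the start used in liver, so these windows need not hold the whole promoter.

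The 4 GR peaks lay close together. Their positions were chr8:96689081-96689231, chr8:96695317-96695467, chr8:96702827-96702977 and chr8:96706400-96706550, each 150 bp wide like all GR peaks. Centres were 6.24, 7.51 and 3.57 kb apart, so all 4 lay within 17.3 kb. The last GR peak before them was 765.4 kb away and the next after them 171.7 kb away. Stretches without GR were common, since 64.4% of 14202 tiles of 120 kb held 0 GR peaks. The tiles were laid over the chromosomes, and only those holding an interval of any list were counted. The 4 peaks of the window are called GR peaks 1, 2, 3 and 4 in this order. They lay in 3 of the 9 dexamethasone DHS of the window, against 16.7% of the dexamethasone list that held a GR peak.

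**Figure D1:**
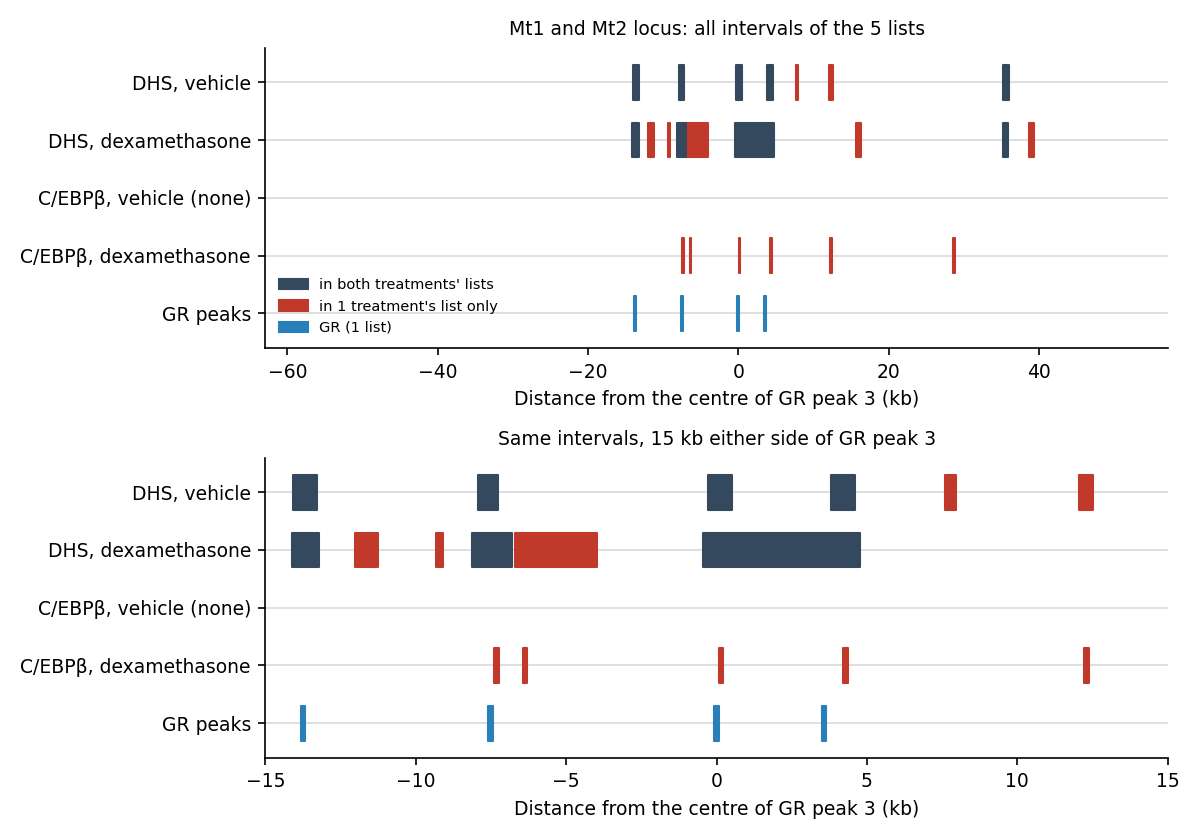
Map of all 26 intervals by list against distance (kb) from the centre of GR peak 3, over the 120-kb window (top, with intervals narrower than 0.25 kb drawn at that width) and within 15 kb (bottom, to scale). Dark bars are intervals present in both treatments' lists, red bars those in 1 treatment's list only, and blue bars GR peaks. The 2 vehicle DHS centred at 0.1 and 4.19 kb are spanned by 1 dexamethasone DHS of 5.23 kb, and the vehicle C/EBPβ row is empty.

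Most of these GR positions were listed as accessible in vehicle livers. GR peaks 1, 2 and 3 overlapped a vehicle DHS, so 3 of 4 did, and 79.2% of the 11666 GR peaks of the whole list do so, a share near that of the locus. GR peak 4 lay 152 bp outside the nearest vehicle DHS, inside a dexamethasone DHS that reached beyond the vehicle interval. Only 1.98% of all GR peaks fell in that class, and here it was 1 of 4. The number was 0 of 4 when GR peaks within 500 bp of a vehicle DHS counted as in it, and when all intervals were set to 300 bp. A DHS found after dexamethasone alone held 0 of the 4, and 15.6% of all GR peaks lay in such a site. GR peaks 1 and 2 sat near the middle of their dexamethasone DHS, 73 and 37 bp from its centre. GR peaks 3 and 4 shared a DHS and lay towards its opposite ends, 464 bp from its start and 1196 bp from its end.

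The widest accessible site of the locus was the dexamethasone DHS at GR peaks 3 and 4. In the vehicle list this stretch held separate DHS at chr8:96702615-96703400 (785 bp) and chr8:96706702-96707491 (789 bp), with 3302 bp between them. In the dexamethasone list a single DHS covered chr8:96702438-96707671, 5233 bp in all, of which 3659 bp lay outside the vehicle DHS. Only 8 of the 63473 dexamethasone DHS were as wide or wider, this site included. DHS that overlapped 2 or more vehicle DHS made up 2.14% of the dexamethasone list (1356 sites, with a median width of 1046 bp), and 4 of those 1356 were as wide. The site held 2 GR peaks, which 1.03% of dexamethasone DHS did, and 2 C/EBPβ peaks of the dexamethasone list.

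At GR peak 2 the accessible site was wider after dexamethasone on both sides. The vehicle DHS there was chr8:96694983-96695641 (658 bp) and the dexamethasone DHS chr8:96694763-96696095 (1332 bp), so it began 220 bp earlier and ended 454 bp later. The log2 ratio of dexamethasone over vehicle width was 1.02. Among 44381 DHS that match between the lists with no other overlap, the median was 0.01 (quartiles -0.16 and 0.19), and 1.40% had a ratio as large. For the 8113 matched DHS that held a GR peak the median was 0.12 (quartiles -0.02 and 0.33).

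GR peak 1 lay in a DHS that hardly differed between the lists. It was 796 bp wide with vehicle (chr8:96688822-96689618) and 887 bp with dexamethasone (chr8:96688786-96689673), a log2 ratio of 0.16, and 28.7% of matched DHS had a ratio as large. The remaining matched DHS of the window had no GR peak. It was 850 bp wide with vehicle (chr8:96738058-96738908) and 704 bp with dexamethasone (chr8:96738044-96738748), a log2 ratio of -0.27, and 84.9% of matched DHS had a ratio as large or larger. With 1 list per treatment, these differences have no replicate check.

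**Figure D2:**
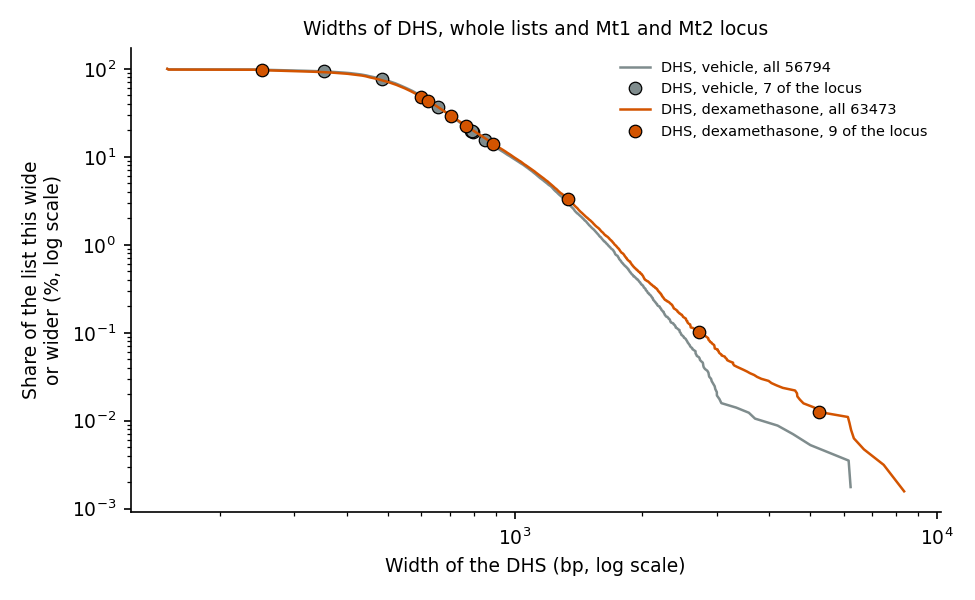
Share of each DHS list that is as wide as or wider than a given width (both axes log scale) for the vehicle and dexamethasone lists (lines), with the 7 vehicle and 9 dexamethasone DHS of the locus as points. The 7 vehicle DHS lie between 353 and 850 bp, while 4 dexamethasone DHS lie beyond them at 887, 1332, 2727 and 5233 bp, and the narrowest dexamethasone DHS stands at the left end.

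In the window 5 DHS of the dexamethasone list had no overlap in the vehicle list, and 0 of them held a GR peak. These dex-only DHS were 5 of the 9 in the window, against 23.8% of the dexamethasone list. A GR peak was held by 0 of the 5, against 11.9% of the 15076 dex-only DHS in the genome, a share too low for so few sites to differ from it visibly. The 3 nearest to GR lay between GR peaks 1 and 3. The site chr8:96690880-96691645 (765 bp) had its centre 2106 bp from that of GR peak 1. The site chr8:96693561-96693812 was 1706 bp from GR peak 2 and had a width shared by 692 dexamethasone DHS, the second most frequent exact width of that list. The site chr8:96696191-96698918 was 2162 bp from GR peak 2.

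That last site was 2727 bp wide, and only 3 of the 15076 dex-only DHS were as wide or wider, itself included. It began 550 bp beyond the nearest vehicle DHS and 96 bp beyond the DHS of GR peak 2. It also held a dexamethasone C/EBPβ peak, which 11.1% of dex-only DHS did and 1 of the 5 here. The other dex-only DHS lay further away, chr8:96718572-96719170 (598 bp) at 12396 bp and chr8:96741554-96742177 (623 bp) at 35390 bp from a GR centre. Over all dex-only DHS the median distance to a GR centre was 36563 bp (quartiles 4177 and 164175 bp). The nearest 3 here were thus within the lower quartile, and the farthest was near the median. The window was chosen by these same distances, so this comparison is a description only.

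In turn 2 vehicle DHS had no overlap in the dexamethasone list, 2 of 7 against 14.9% of the vehicle list. They were chr8:96710511-96710864 (353 bp) and chr8:96714937-96715420 (483 bp), at 4212 and 8703 bp from the centre of GR peak 4. Both were narrower than the 596 bp median of the vehicle list. Over all vehicle-only DHS the median distance was 65623 bp, and 8.94% and 15.7% were as near as these. Any site centred in this window lies nearer to GR than that median, because the window holds the GR peaks. Nearness to GR thus follows from the choice of window and is no trait of these DHS.

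From the start of the DHS at GR peak 2 to the end of that at GR peak 4, chr8:96694763-96707671, dexamethasone DHS covered 9292 of 12908 bp (72.0%) and vehicle DHS 2232 bp (17.3%). Both ends of the stretch are ends of dexamethasone DHS, so high coverage by that list follows in part from how the stretch was drawn. Each list had 3 DHS in that stretch, but not the same ones: the 2727-bp DHS had no vehicle counterpart, and 1 dexamethasone DHS spanned 2 vehicle DHS. Over the whole window the covered length was 13.1 kb in 9 dexamethasone DHS (mean width 1457 bp) and 4.71 kb in 7 vehicle DHS (mean width 673 bp). The difference of 8406 bp was set beside 14202 tiles of 120 kb, laid over the chromosomes in phase with the window and holding an interval of any list. A difference as large was found in 7 tiles, the locus included. Among the 4493 tiles with 5 or more DHS in both lists the median ratio of covered length was 1.08, the locus had 2.78, and 4 tiles including it were at that ratio or above. The dex-only DHS by which the window was chosen are part of the covered length. Both ranks are therefore a description and no support for a difference between treatments.

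C/EBPβ was listed at this locus after dexamethasone and nowhere in it after vehicle. All 6 C/EBPβ peaks were absent from the vehicle list, as were 20.0% of the 25392 dexamethasone peaks in the genome. They were chr8:96695509-96695659, chr8:96696454-96696604, chr8:96702967-96703117, chr8:96707108-96707258, chr8:96715123-96715273 and chr8:96731555-96731705. The nearest vehicle peaks were chr8:96560945-96561108 and chr8:96878627-96878784, 318 kb apart, and 7.46% of the gaps between neighbouring vehicle peaks were as long. A further dex-only peak, chr8:96622386-96622536, lay 17.5 kb before the window. With it the locus made an unbroken run of 7 dex-only peaks among all C/EBPβ peaks of both lists. Of 3908 such runs 6 were as long, the longest held 9 peaks and 3049 held 1.

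Set against tiles of equal size, the number of C/EBPβ peaks after dexamethasone was high but not rare, while their combination with 0 vehicle peaks, a pattern read from the locus itself, was not found in another tile. Of the 14202 tiles, 1203 held 6 or more dexamethasone peaks (8.47%). These 1203 had a median of 6 vehicle peaks, and the locus was the only one among them with 0. These 2 limits were set by the counts of the locus after seeing them, so this is a description. At least 6 dex-only peaks were found in 18 tiles (0.127%). For GR, 939 tiles (6.61%) held 4 or more peaks, for dexamethasone DHS 2215 (15.6%) held 9 or more, for vehicle DHS 3005 (21.2%) held 7 or more, and for dex-only DHS 360 (2.53%) held 5 or more.

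**Figure D3:**
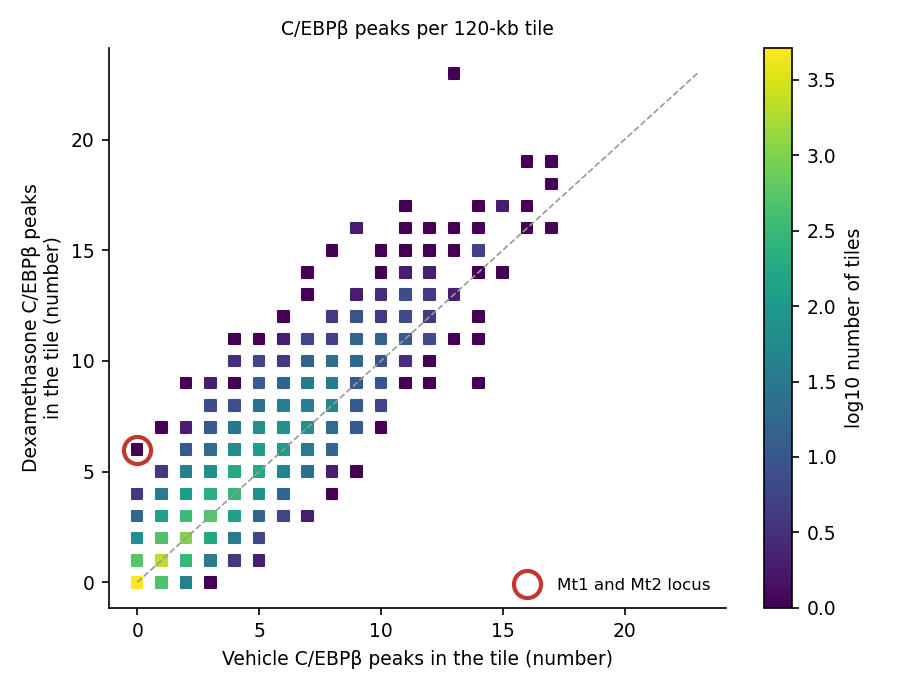
Number of dexamethasone against vehicle C/EBPβ peaks in each 120-kb tile; squares are coloured by the log10 number of tiles at that pair of counts, and the dashed line marks equal counts. The locus (red circle) stands on the left edge at 6 dexamethasone and 0 vehicle peaks, where no other tile has as many dexamethasone peaks.

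Most of the C/EBPβ peaks lay in sites listed as accessible in vehicle livers, a share near that of all dex-only C/EBPβ peaks. Of the 6, 4 lay in a vehicle DHS (67.5% of all 5079 dex-only C/EBPβ peaks), and 1 in a dex-only DHS (15.3%), the 2727-bp site. Of the 4, 3 were in DHS shared by both lists, at or near GR peaks 2, 3 and 4. The peak chr8:96715123-96715273 lay in a vehicle-only DHS, 3.3 kb from the nearest dexamethasone DHS. That combination, C/EBPβ listed only with hormone on a DHS listed only without it, was found for 60 of the 5079 (1.18%). The peak chr8:96731555-96731705 lay in no DHS of either list (14.9% of dex-only peaks) and was 25.2 kb from the nearest GR centre.

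By overlap of at least 1 bp, 1 of the 4 GR peaks of the locus met a C/EBPβ peak. GR peak 3 and its nearest C/EBPβ peak overlapped by 10 bp, with centres 140 bp apart. It was the only GR peak of the 4 to overlap a dexamethasone C/EBPβ peak, against 62.0% of all GR peaks, and 0 of the 4 overlapped a vehicle C/EBPβ peak, against 50.4%. The value for vehicle only restates that the window held no vehicle C/EBPβ peak. From the C/EBPβ side, 1 of 6 overlapped GR, against 27.5% of dex-only peaks. The overlap of 10 bp no longer counted when the larger part of the shorter interval or a centre had to be covered, which left 0 of 4. With intervals of 300 bp, or within 500 bp of each other, 2 of 4 had a dexamethasone C/EBPβ peak.

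At GR peak 2 a gap of 42 bp separated GR from C/EBPβ, with centres 192 bp apart, and at GR peak 4 the gap was 558 bp, with centres 708 bp apart. GR peak 1 had no C/EBPβ peak within 6428 bp of its centre. Over all GR peaks this distance had a median of 45 bp and quartiles of 14 and 2126 bp, so all 4 were beyond the median and 3 were below the upper quartile. Among the 7265 overlapping GR and C/EBPβ pairs in the genome the median was 19 bp, and 63 pairs (0.867%) had centres 140 bp or more apart.

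**Figure D4:**
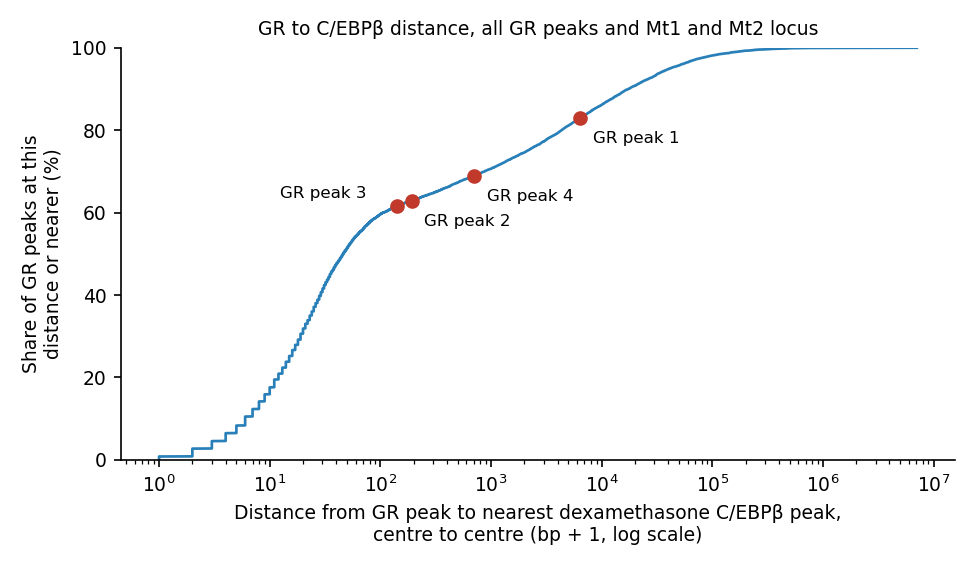
Share of all 11666 GR peaks (line) whose nearest dexamethasone C/EBPβ centre is at a given distance or nearer (x axis in bp + 1, log scale), with the 4 GR peaks of the locus as red points. GR peaks 3, 2, 4 and 1 stand at 140, 192, 708 and 6428 bp, to the right of the median of 45 bp.

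The windows on either side held fewer intervals. The 120-kb window before it held 18 intervals, with 0 GR peaks, 3 dexamethasone and 2 vehicle C/EBPβ peaks, and 5 dexamethasone and 8 vehicle DHS. The window after it held 6, with 2 GR peaks and 1 interval in each of the other 4 lists. Ordered by centre, the first interval of the locus was GR peak 1, 49.2 kb inside the window's start. The last interval was a dex-only DHS 18.1 kb from its end, so no member lay near an edge. The first interval after the window was a GR peak 118.2 kb beyond it.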

How the data were processed

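The authors deposited 5 interval lists with positions and a running identifier, and no score or count. Per the submitters' processing notes, CASAVA 1.8 and mm9 were used. The peak caller, threshold and pooling of replicates were not given in the sources used here. Whether positions count from 0 or 1 is not stated, so half-open intervals were assumed, printed as in the files. The 20313 C/EBPβ peaks that both lists share have identical coordinates in both.

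Members were all intervals with their centre in the window, and all are accounted for. Those given singly were, by rule, GR peaks, intervals of 1 treatment's list, and intervals at GR peaks. Overlap meant at least 1 bp, and distances run between centres. The window and the lists of genes and motifs were chosen with earlier results of these data known. No test was run, since the lists have no replicates. Tiles, overlaps and distances were computed with Python 3.11.15, numpy 2.4.6 and pandas 2.3.3, and drawn with matplotlib 3.10.9. The overlap functions were tested on simulated data, and equalled bedtools 2.31.1 for 7 pairs of lists. All 6 genes looked up were in the RefSeq promoter table. The count of per-sample columns left unused was 0. Samples of polymerase II, input and adenovirus were not analysed here.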

Additional observations from a re-analysis of the deposited data

How the results depend on the processing

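Of 89 alternative values for 22 counts, ranks and distances, 8 moved by more than 1.5 times. Some of the 89 could not move. Filters on the DHS lists leave the overlaps of GR with C/EBPβ untouched, and every tile holds 0 or more vehicle C/EBPβ peaks. The share that moved is therefore no measure of how stable the results are. Vehicle-only DHS numbered 4 with 300-bp intervals and 0 with DHS above the median width, a setting that removes both. The GR peak in a dexamethasone DHS outside vehicle DHS became 0 both within 500 bp and with 300-bp intervals. GR peaks with a dexamethasone C/EBPβ peak numbered 0 when most of the shorter interval had to overlap, 0 with the centre inside, 2 within 500 bp and 2 with 300-bp intervals. With the tiles shifted, the locus was still the only 1 with at least 6 dexamethasone and 0 vehicle C/EBPβ peaks. Keeping only tiles with a vehicle DHS could not change this. The locus holds such DHS, and no other tile had the combination before that restriction. Of the 12 alternative motif counts 6 moved, among them the Mt1 metal response core (1 to 0 with a further G) and the GR hexamer with 1 mismatch (0 to 3 in Mt1 and 0 to 2 in Mt2). The tile ranks of list-only intervals and the limits of 6 and 0 C/EBPβ peaks were added after seeing the data. Also not planned beforehand were covered lengths and width ranks of DHS, the run of dex-only C/EBPβ peaks and the vehicle C/EBPβ gap. The same holds for the class of dex-only C/EBPβ peaks in a vehicle-only DHS. No paired analysis was possible because each treatment has a single list with no replicate columns, and no sample was left out for the same reason. Without signal values, a weak peak below the threshold of a list cannot be told from none.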
